A study of Mus musculus with 6 samples.

Results

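The transcripts described here come from the mitochondrial genome. All genes that the deposited table places on chromosome MT were taken, 37 of its 54532 genes: 13 protein-coding genes, 2 ribosomal RNA (rRNA) genes and 22 transfer RNA (tRNA) genes. They were measured by RNA sequencing of CD11b-positive bone marrow cells, a mixture of myeloid cells such as neutrophils, monocytes and precursors of osteoclasts. Of the mice, 3 are titled Tshr-/-, without the receptor of thyroid-stimulating hormone, and 3 are titled Tshr+/+, the wild type. All were 12 weeks old, the marrow came from tibias, and a label shared by both groups names osteoclast differentiation as the treatment, with no time given. Another label calls the Tshr-/- animals a knockdown, and the labels used here do not say how the allele was made. Each number in the titles was read as 1 mouse and 1 library, and nothing says more about their origin, so p-values measure the spread between these libraries.

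The mitochondrial genome is a small circle. Each of its strands is transcribed into long RNAs, from which enzymes cut out the tRNAs and thereby release the messenger RNAs (mRNAs) and rRNAs that lie between them. The mRNAs encode core subunits of respiratory complexes I, III and IV and of ATP synthase. The remaining subunits and all protein factors that copy, transcribe and translate this genome come from nuclear genes. Stretches of mitochondrial DNA have also been copied into nuclear chromosomes during evolution, and reads from such stretches fit both places. Neutrophils are known for few mitochondria and a reliance on glycolysis, whereas osteoclasts are rich in mitochondria.

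Fragments counted on genes numbered between 14698126 and 17976477 per library. Tshr itself, the gene named in the labels, had 40, 25 and 1 fragments in the libraries labelled Tshr-/- 1, 2 and 3. It had 55, 55 and 45 in Tshr+/+ 1, 2 and 3. The libraries labelled Tshr-/- 1 and 2 thus held many more Tshr fragments than Tshr-/- 3. As the making of the allele is not given, these counts do not settle whether those 2 labels hold. Groups are named below by label only. Itgam, the gene of CD11b, had between 87.4 and 134 FPKM in Tshr-/- and between 111 and 125 FPKM in Tshr+/+, where FPKM are fragments scaled to gene length and library size. All 10 myeloid markers averaged at least 1 FPKM. Of 7 erythroid markers present, 4 did, with sums between 93.0 and 160 in Tshr-/- against 52.1 to 131 in Tshr+/+ (FPKM). Of 5 platelet markers 4 did, with sums of 10.8 to 22.8 and 10.1 to 18.3 FPKM, and Gp1bb was at 0. Markers of B cells summed to 4.17 to 9.21 and 5.76 to 10.1 FPKM, markers of T and NK cells to 72.4 to 88.6 and 58.8 to 74.7 FPKM, mostly from Nkg7, and markers of stromal cells to 6.16 to 11.7 and 5.36 to 9.29 FPKM. The part of these cells in any result below was not tested.

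The sequences that matter most are those of mt-Nd3, the gene of a small subunit of complex I, and of Gm28438, an unprocessed pseudogene on chromosome 1 that is a nuclear copy of it. The lines give the first 60 bases of mt-Nd3 (chrM:9459-9518, plus strand) and the same stretch of Gm28438 (chr1:24613060-24613119, minus strand), in GRCm38 from GENCODE release M21, with the base that differs in capitals.
mt-Nd3: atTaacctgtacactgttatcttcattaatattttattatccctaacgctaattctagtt
Gm28438: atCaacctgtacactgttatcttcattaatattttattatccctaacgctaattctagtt
Over the 345 bases that could be set side by side, T3C was the only difference (base of mt-Nd3, position from 1 at its 5′ end, base of the copy), at position 9461 of the mitochondrial genome. A second shared stretch lies within the mitochondrial genome, where the last 43 bases of mt-Atp8 are the first 43 of mt-Atp6 (chrM:7927-7969, plus strand), both subunits of ATP synthase. A fragment from it can be counted for either gene.
mt-Atp8 end and mt-Atp6 start: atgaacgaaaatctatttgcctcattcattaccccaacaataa
Of the tRNA genes, 4 held at least 10 fragments per library on average, and their sequences follow because most tRNA fragments were counted on them: mt-Tp for proline (chrM:15356-15422, minus strand), mt-Tn for asparagine (chrM:5089-5159, minus strand), mt-Tc for cysteine (chrM:5192-5257, minus strand) and mt-Tl1, one of the leucine tRNAs (chrM:2676-2750, plus strand).
mt-Tp: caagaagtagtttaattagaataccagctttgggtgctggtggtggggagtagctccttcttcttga
mt-Tn: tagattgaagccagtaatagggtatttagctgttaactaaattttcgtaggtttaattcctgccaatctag
mt-Tc: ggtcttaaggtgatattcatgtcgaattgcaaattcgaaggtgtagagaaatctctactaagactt
mt-Tl1: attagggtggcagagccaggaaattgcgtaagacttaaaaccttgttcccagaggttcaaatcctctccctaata

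Mitochondrial transcripts took a small share of these libraries, and the groups as labelled overlapped in it. They held 0.592%, 0.605% and 0.762% of all fragments in the libraries labelled Tshr-/- 1, 2 and 3, against 0.636%, 0.613% and 0.657% in Tshr+/+ 1, 2 and 3. The library labelled Tshr-/- 3, with 1 fragment of Tshr, was the highest of the 6, while Tshr-/- 1 and 2, with 40 and 25, were the lowest. The Tshr+/+ libraries 1, 2 and 3, with 55, 55 and 45, lay between. The means were 0.653% ± 0.0948 in Tshr-/- and 0.635% ± 0.0221 in Tshr+/+ (SD, n = 3 each; p = 1 in an exact permutation test, two-sided, which cannot go below 0.1 with 3 libraries per group). In bulk samples such as these, fewer cells of a type and less RNA per cell cannot be told apart. Without the library labelled Tshr-/- 3, the difference was -0.0367 percentage points, and without Tshr-/- 1 and 2 it was 0.127, where the 6 libraries gave 0.0179.

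Protein-coding genes held most of the mitochondrial fragments. They took between 86.5% and 90.5% of them, the rRNA genes between 9.11% and 13.2%, and the tRNA genes between 0.264% and 0.359%. The summed level of the 13 mRNAs was 4078, 4284 and 4784 FPKM in the libraries labelled as Tshr-/- 1, 2 and 3, against 4430, 4362 and 4221 FPKM in Tshr+/+ 1, 2 and 3. The Tshr-/- libraries thus held both the lowest and the highest sum. The difference of the mean log2 sums was 0.01 (exact two-sided permutation test p = 0.9). It turned to -0.0534 without Tshr-/- 3 and to -0.00788 without Tshr+/+ 3, and was 0.0619 without Tshr-/- 1.

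The level of single genes, given per length as FPKM, fell into 2 separate ranges. The 7 mRNA genes mt-Co1, mt-Cytb, mt-Nd1, mt-Nd6, mt-Nd4, mt-Nd2 and mt-Nd5 averaged between 215 and 1904 FPKM over the 6 libraries. The other 6, mt-Co2, mt-Atp6, mt-Co3, mt-Nd3, mt-Nd4l and mt-Atp8, averaged between 1.83 and 38.2 FPKM. They lie next to each other on the circle, and the plot of levels in genome order shows them as a trough between mt-Co1 and mt-Nd4. The lowest, mt-Nd3, mt-Nd4l and mt-Atp8, are also the shortest mRNA genes, with 348, 297 and 204 bases. The part of gene length in their levels was not tested. The 3 core subunits of complex IV, present in equal number in the complex, span the gap. mt-Co1 averaged 1904 FPKM, mt-Co2 38.2 FPKM and mt-Co3 13.5 FPKM.

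**Figure D1:**
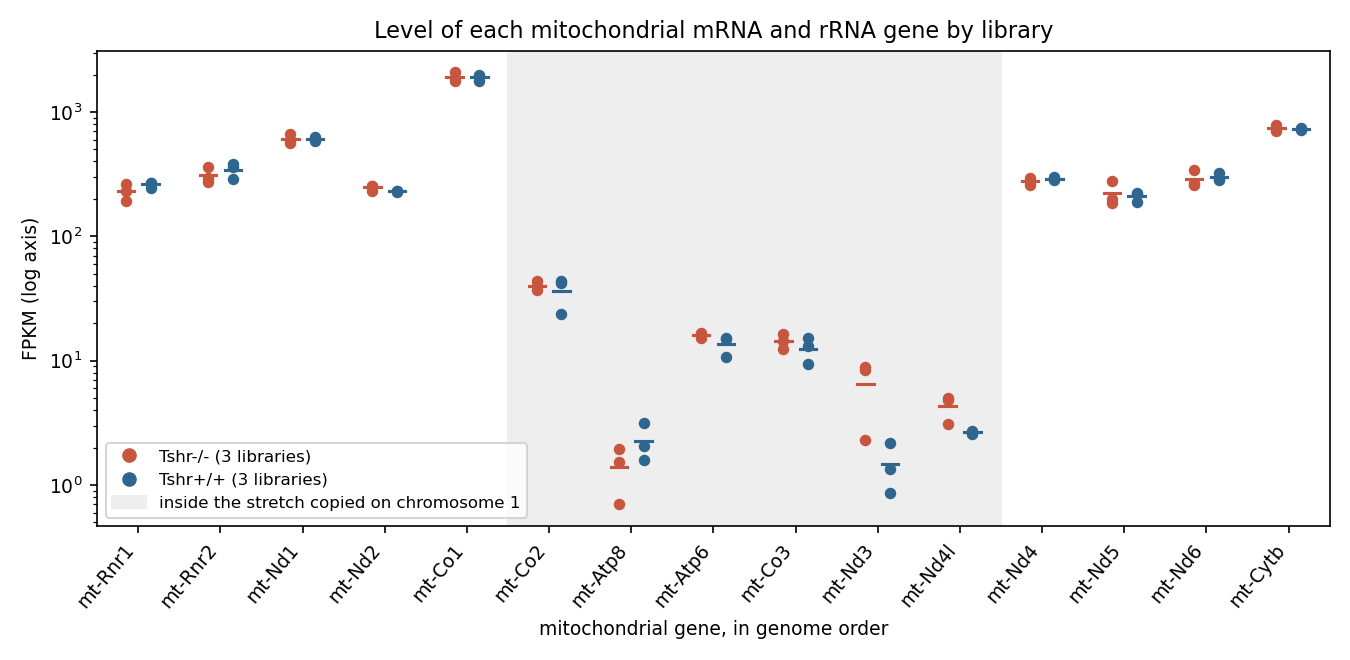
FPKM (log axis) of the 13 mRNA and 2 rRNA genes in genome order, with 1 point per library, Tshr-/- left of Tshr+/+ and a short line at each group mean. Grey marks genes whose position lies inside the stretch copied on chromosome 1, which average between 1.83 and 38.2 FPKM, below every gene outside it.

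The boundary of that range followed a nuclear copy. In the annotation, 7 unprocessed pseudogenes lie side by side on the minus strand of chromosome 1, from 24611535 to 24616197 of GRCm38. In sequence they match, in the same order, the end of mt-Co1 (Gm29216), mt-Co2 (Gm28661), mt-Atp6 (Gm10925), mt-Co3 (Gm28437), mt-Nd3 (Gm28438), mt-Nd4l (Gm10222) and the first part of mt-Nd4 (Gm28439). For 5 of the 7 the chromosome and mitochondrial positions stood at 1 fixed offset, and the stretch of 4663 bases corresponds to mitochondrial positions 6381 to 11042, each copy placed by its own offset, which differed by 1 base for Gm10222 and Gm28439. Among 50-base words of each gene, 100% of those of mt-Co2 occurred in annotated transcripts of other chromosomes, as did 99.5% for mt-Atp6, 99.9% for mt-Co3, 98.0% for mt-Nd3 and 98.8% for mt-Nd4l. The share was 51.1% for mt-Co1 and 62.2% for mt-Nd4, 8.19% for mt-Nd2, 7.61% for mt-Nd5, and 0% for mt-Nd1, mt-Nd6 and mt-Cytb. These shares are over all other chromosomes. For mt-Co1, Gm29216 on chromosome 1 held 28.7% of the words and Gm13340 on chromosome 2 held 27.5%, with 120 fragments over the 6 libraries. Also on chromosome 2, Gm13341 held 35.3% of the words of mt-Co2 and Gm13339 held 8.19% of those of mt-Nd2. For mt-Atp8 the share was 0% as well, but its last 43 bases, common to mt-Atp6 and matched by Gm10925, are shorter than such a word. Of its 30-base words, 8.0% were shared. No annotated transcript covers the rest of the part of chromosome 1 that its position falls in, and the sequence there was not analysed here. The copies on chromosome 1 differed from the mitochondrial genes at no base for 5 of the 7 pairs, at 1 base for mt-Nd3 and at 6 bases, all between positions 1056 and 1066, for mt-Co1. The counting of fragments that fit several places is not described in the labels, so the levels of the genes inside the stretch are uncertain, and the part of the copies in the low levels was not tested.

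Among the mRNA and rRNA genes outside the trough, part of the order of levels was shared by the libraries. The order mt-Co1 (complex IV), mt-Cytb (complex III) and mt-Nd1 (complex I) held in 6 of 6 libraries with no overlap between neighbours. The levels of mt-Nd6 and mt-Nd4 overlapped, and their order of means held in 2 of 6 libraries. mt-Nd4 stood above mt-Rnr1 in 6 of 6 libraries and mt-Nd2 above mt-Nd5 in 5 of 6, again with overlapping ranges. mt-Co1 alone took between 45.3% and 47.4% of all mitochondrial fragments. Across the 6 libraries the coefficient of variation of the 7 mRNA genes outside was between 3.93% and 15.8%, and between 14.4% and 91.0% for the 6 genes of the trough.

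Of the 37 genes, 27 reached 1 FPKM in at least 3 libraries and were tested with all other genes that did. The test was limma's linear model on log2(FPKM + 1), with Benjamini-Hochberg adjustment over 10913 genes, and fold changes on this scale understate the change of low genes. It called 0 of the 27, and 0% of all genes tested (0 of 10913). At an unadjusted p under 0.05 stood 2 of the 27, mt-Nd3 and mt-Nd4l, against 2.9% of all genes tested (317). Fitted to whole fragments with voom, limma called 0 of 18 mitochondrial genes and 0 of all 13709 genes in that fit. Of the 18, 1 stood at an unadjusted p under 0.05, against 373 of the 13709. All 3 Tshr-/- values lay above all 3 Tshr+/+ values for 4 of the 27 (mt-Nd2, mt-Atp6, mt-Nd3 and mt-Nd4l), against 3.23% of all genes tested. The reverse held for 0 of the 27, against 3.55% of all genes tested. These comparisons rest on the deposited scaling, whose library size was between 0.939 and 1.12 times the fragments counted on genes. Scaled to those fragments instead, the groups overlapped for mt-Nd2 and mt-Atp6. The median log2 fold change over the 13 mRNA genes was 0.06, beside -0.01 over all genes tested.

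On the log2(FPKM + 1) scale, mt-Nd3 had the largest fold change of the mitochondrial genes that were tested. As a ratio of mean FPKM it was 4.44, below the 4.67 of mt-Th, a tRNA gene with at most 9 fragments in a library. It held 8.40, 8.81 and 2.28 FPKM in the libraries labelled as Tshr-/- 1, 2 and 3, against 1.35, 0.867 and 2.18 FPKM in Tshr+/+ 1, 2 and 3. The libraries labelled Tshr-/- 1 and 2 were high, and the library labelled Tshr-/- 3 lay next to the highest Tshr+/+ library. The log2 fold change was 1.48 ± 0.44 (SE; 95% interval 0.43 to 2.53), which did not pass (limma adjusted p = 0.9997, unadjusted p = 0.0125). Leaving out Tshr-/- 1 and 2 gave 0.45, from 1 Tshr-/- library.

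These values rest on few fragments, and the nuclear copy had the opposite pattern. mt-Nd3 had 47, 43 and 16 fragments in the libraries labelled Tshr-/- 1, 2 and 3, against 8, 5 and 14 in Tshr+/+ 1, 2 and 3. Gm28438 had 11, 6 and 53 fragments in the libraries labelled Tshr-/- 1, 2 and 3, against 65, 48 and 63 in Tshr+/+ 1, 2 and 3. mt-Nd3 thus held more fragments than its copy in the libraries labelled Tshr-/- 1 and 2, and fewer in the other 4. The share of the pair's fragments counted on mt-Nd3 was 81.0% in the library labelled Tshr-/- 1 (exact binomial 95% interval 68.6 to 90.1), 87.8% in Tshr-/- 2 (75.2 to 95.4) and 23.2% in Tshr-/- 3 (13.9 to 34.9). In Tshr+/+ 1, 2 and 3 it was 11.0% (4.85 to 20.5), 9.43% (3.13 to 20.7) and 18.2% (10.3 to 28.6). The intervals of Tshr-/- 1 and 2 did not overlap those of the other 4 libraries, and the interval of Tshr-/- 3 overlapped those of all 3 Tshr+/+ libraries. Intervals cover counting error only. This division was examined after its values were seen and is given as a description.

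**Figure D2:**
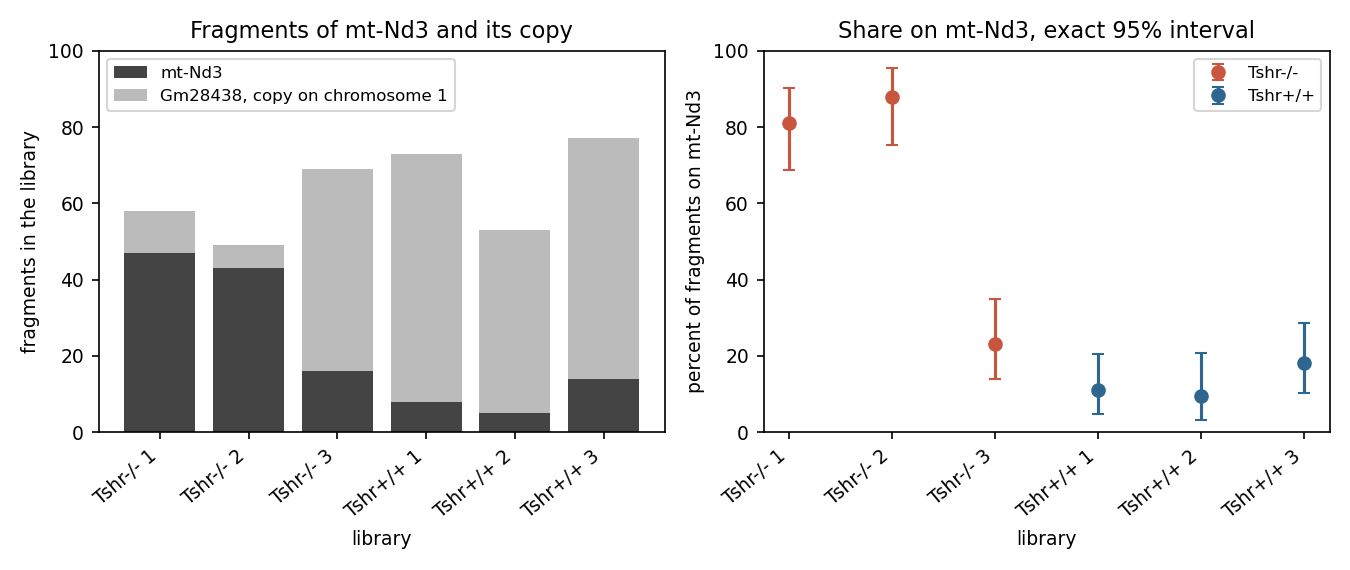
Left, fragments of mt-Nd3 (dark) and of its copy Gm28438 (light) in each library, Tshr-/- left of Tshr+/+. Right, the percent of those fragments counted on mt-Nd3 with exact 95% intervals: the libraries labelled Tshr-/- 1 and 2 sit at 81.0% and 87.8%, the other 4 between 9.43% and 23.2%.

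The sum of the pair differed far less between libraries than its division. It was 58, 49 and 69 fragments in the libraries labelled Tshr-/- 1, 2 and 3, against 73, 53 and 77 in Tshr+/+ 1, 2 and 3. Scaled to library size (CPM) this was 3.58, 3.33 and 3.84, against 4.14, 3.00 and 4.51, and the groups overlapped. With the copy's fragments added, a setting added once the data had been seen, the log2 fold change of mt-Nd3 was -0.12 ± 0.13 (SE; limma adjusted p = 0.9997). Most fragments fell on mt-Nd3 in the 2 libraries with 40 and 25 fragments of Tshr under a Tshr-/- label. The library labelled Tshr-/- 3, with 1 fragment of Tshr, divided its fragments nearly as Tshr+/+ 3 did. The Tshr+/+ libraries 1, 2 and 3, with 55, 55 and 45 fragments of Tshr, had most of the pair's fragments on the copy. The cause of the division was not tested. T3C, printed above in capitals, is the only base within the compared stretch at which a fragment can differ between the gene and its copy.

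The other pairs divided their fragments more evenly across libraries. The share counted on the mitochondrial gene was between 53.8% and 57.6% for mt-Co2, between 51.7% and 59.4% for mt-Atp6 and between 53.5% and 66.7% for mt-Co3. It was at least 99.6% in every library for mt-Co1 and at least 99.4% for mt-Nd4, whose outer parts lie beyond the copied stretch. For mt-Nd4l it was 66.7%, 68.4% and 51.8% in the libraries labelled Tshr-/- 1, 2 and 3, against 43.3%, 56.5% and 48.4% in Tshr+/+ 1, 2 and 3. The range over libraries was thus 78.3 percentage points for mt-Nd3 and 25.1 for mt-Nd4l, the widest next to it.

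**Figure D3:**
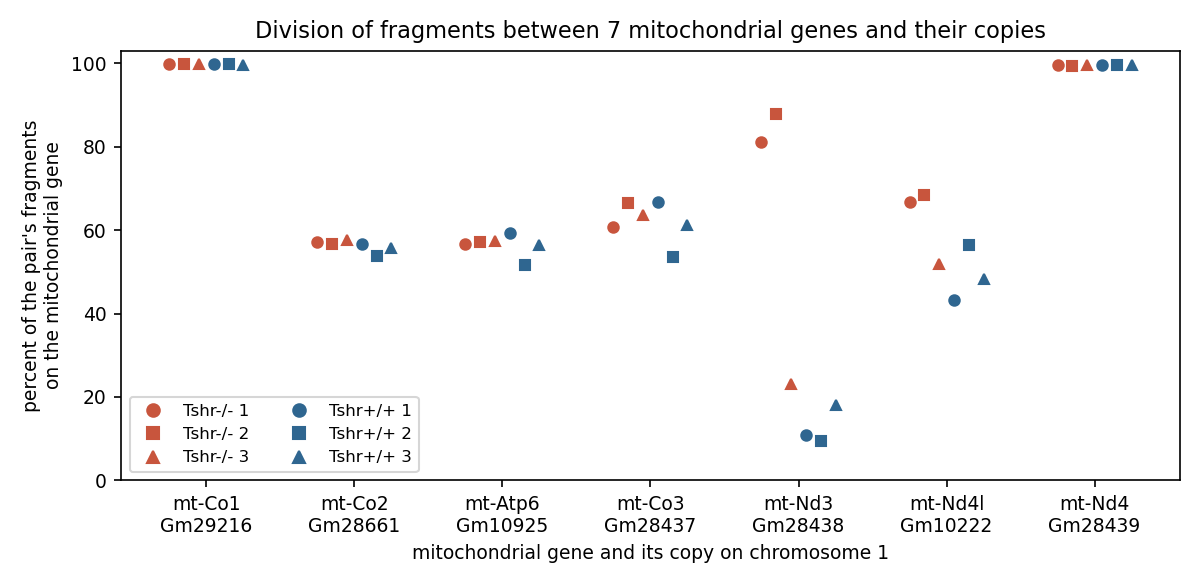
Percent of the fragments of each pair, mitochondrial gene and copy on chromosome 1, that were counted on the mitochondrial gene, with 1 point per library and Tshr-/- left of Tshr+/+. mt-Co2 and mt-Atp6 lie between 51.7% and 59.4% in all 6 libraries, while mt-Nd3 spans 9.43% to 87.8%.

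mt-Nd4l, another small subunit of complex I, was the second gene at an unadjusted p under 0.05. It held 5.02, 3.12 and 4.85 FPKM in the libraries labelled as Tshr-/- 1, 2 and 3, against 2.57, 2.64 and 2.73 FPKM in Tshr+/+ 1, 2 and 3, from 13 to 29 and 13 to 15 fragments. The groups did not overlap in FPKM. In fragments they did, with 13 in Tshr-/- 2 against 13, 13 and 15 in Tshr+/+ 1, 2 and 3. By counting error alone, 13 fragments have a 95% interval of 6.92 to 22.2. The log2 fold change was 0.53 ± 0.17 (SE; limma adjusted p = 0.9997, unadjusted p = 0.0161), and 0.30 ± 0.23 (SE) with the fragments of its copy Gm10222 added. Leaving out Tshr-/- 1 and 2 gave 0.68. As almost all of mt-Nd4l is identical to that copy, its own level is uncertain.

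The larger subunits of complex I, which pumps protons while oxidising NADH, overlapped between the groups, except for mt-Nd2. mt-Nd1 had 559, 594 and 670 FPKM in Tshr-/- 1, 2 and 3 against 584, 608 and 624 in Tshr+/+ 1, 2 and 3. mt-Nd2 had 232, 255 and 255 FPKM in Tshr-/- 1, 2 and 3 against 228, 231 and 229 in Tshr+/+ 1, 2 and 3. Its groups did not overlap in deposited FPKM, but the lowest Tshr-/- and highest Tshr+/+ values nearly touched (log2 fold change 0.11 ± 0.10, SE, limma adjusted p = 0.9997). mt-Nd4 had 260, 292 and 280 FPKM in Tshr-/- 1, 2 and 3 against 299, 290 and 286 in Tshr+/+ 1, 2 and 3, and mt-Nd5 had 199.8, 185 and 278 FPKM in Tshr-/- 1, 2 and 3 against 217, 222 and 190.1 in Tshr+/+ 1, 2 and 3. For mt-Nd5 the library labelled Tshr-/- 3 was well above all others. Without that library its log2 fold change was -0.12, and without Tshr+/+ 3 it was -0.0132, against 0.06 with all 6.

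mt-Nd6 is the only mRNA gene on the minus strand, the strand opposite to the other 12. Its transcript holds 28.1% G and 5.97% C, where the 12 others hold between 5.88% and 16.1% G and between 22.1% and 29.97% C. It had 259, 266 and 343 FPKM in Tshr-/- 1, 2 and 3 against 290.4, 286 and 324 in Tshr+/+ 1, 2 and 3. The library numbered 3 was the highest of each group. As a share of mitochondrial mRNA fragments it took 2.57%, 2.51% and 2.89% in Tshr-/- and 2.63%, 2.63% and 3.14% in Tshr+/+ libraries 1, 2 and 3 (exact two-sided permutation test p = 0.5). The groups overlapped, and the difference of means was -0.143 percentage points, but 0.0280 without Tshr+/+ 3. Between libraries of equal number the share was lower in Tshr-/- in 3 of 3 pairs (exact paired permutation test, two-sided, p = 0.25). The labels do not state this pairing, and the paired test was added after the data were seen. The last 14 bases of mt-Nd5 overlap mt-Nd6 on the opposite strand, where counts not split by strand would mix both genes. Such counts would also place on mt-Nd6, over its whole length, any fragments of long RNAs of the opposite strand. The labels do not say whether counts were split by strand.

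The genes of complexes III and IV and of ATP synthase showed no separation either, apart from mt-Atp6. mt-Cytb, the cytochrome b of complex III, had 709, 745 and 788 FPKM in Tshr-/- 1, 2 and 3 against 749.5, 735 and 711 in Tshr+/+ 1, 2 and 3. mt-Co1, which carries the site where complex IV reduces oxygen, had 1775, 1866 and 2084 FPKM in Tshr-/- 1, 2 and 3 against 1983, 1940 and 1778 in Tshr+/+ 1, 2 and 3. The log2 fold changes were 0.03 ± 0.11 (SE) for mt-Cytb and 0.005 ± 0.14 (SE) for mt-Co1, both below 0 without Tshr-/- 3 (-0.00985 and -0.0606), and the 95% intervals reached from -0.24 to 0.30 and from -0.32 to 0.33. Differences within these bounds could not be told from 0 with 3 libraries per group.

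Of the remaining subunits of complex IV, mt-Co2, which takes electrons from cytochrome c, had 39.6, 37.1 and 43.4 FPKM in Tshr-/- 1, 2 and 3 against 41.8, 23.9 and 43.6 in Tshr+/+ 1, 2 and 3. Tshr+/+ 2 was the lowest of all 6. mt-Co3 had 12.4, 14.4 and 16.5 FPKM in Tshr-/- 1, 2 and 3 against 15.1, 9.32 and 13.03 in Tshr+/+ 1, 2 and 3, again with Tshr+/+ 2 at the bottom. Without Tshr+/+ 2 the log2 fold changes were -0.09 for mt-Co2 and 0.03 for mt-Co3, against 0.18 ± 0.23 (SE) and 0.21 ± 0.19 (SE) with all libraries. Neither passed (limma adjusted p = 0.9997 each).

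Of the subunits of ATP synthase, mt-Atp6, part of the proton channel, had 16.2, 15.2 and 16.8 FPKM in Tshr-/- 1, 2 and 3 against 14.995, 10.7 and 15.2 in Tshr+/+ 1, 2 and 3. The Tshr-/- values all lay above in deposited FPKM, by a narrow margin over Tshr+/+ 1 and 3 (log2 fold change 0.24 ± 0.15, SE, limma adjusted p = 0.9997). It was 0.08 without Tshr+/+ 2. mt-Atp8, a short subunit of the membrane part, had 1.52, 0.699 and 1.95 FPKM in Tshr-/- 1, 2 and 3 against 3.16, 2.07 and 1.59 in Tshr+/+ 1, 2 and 3, from 5, 2 and 8 and from 11, 7 and 6 fragments. The groups overlapped, and so few fragments set wide bounds (log2 fold change -0.46 ± 0.26, SE; 95% interval -1.08 to 0.16).

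**Figure D4:**
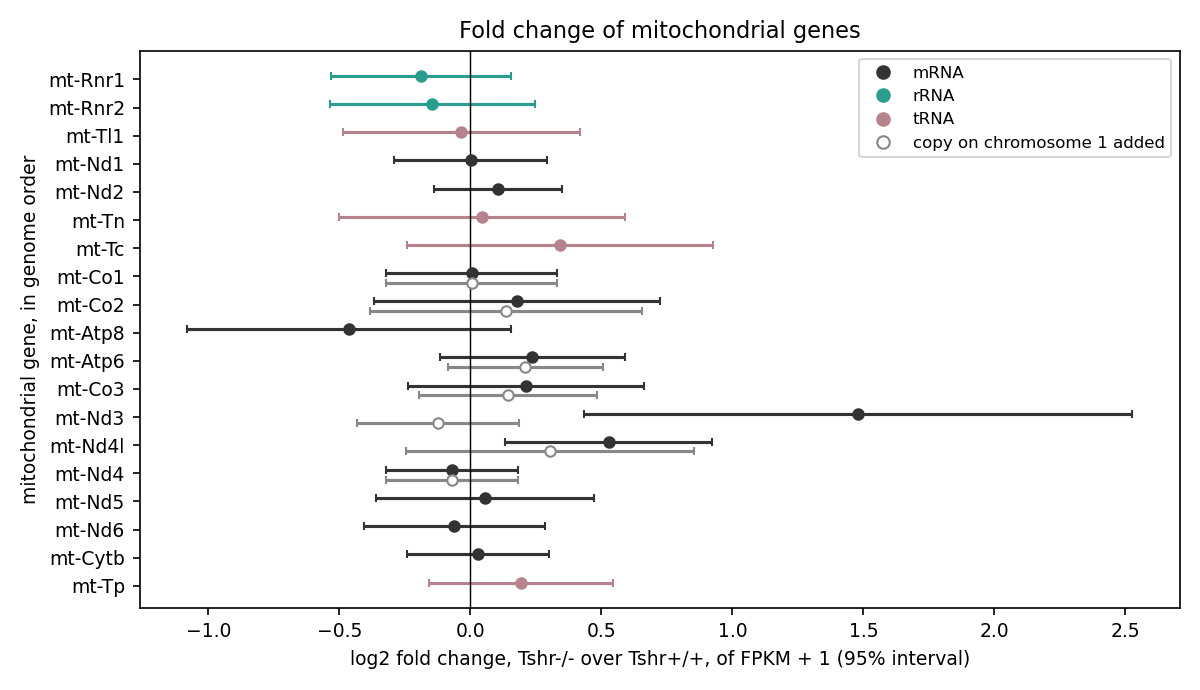
Log2 fold change of FPKM + 1, Tshr-/- over Tshr+/+, with 95% intervals of limma, for the 15 mRNA and rRNA genes and the 4 tRNA genes with at least 10 fragments on average. Open grey points give the 7 genes after the fragments of their copy on chromosome 1 were added: mt-Nd3 then stands at -0.12 in place of 1.48.

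The rRNAs form the mitochondrial ribosome, mt-Rnr1 its small and mt-Rnr2 its large subunit. mt-Rnr1 had 233, 266 and 194 FPKM in Tshr-/- 1, 2 and 3 against 271, 271 and 243 in Tshr+/+ 1, 2 and 3. mt-Rnr2 had 295 FPKM, 361 FPKM and 274 FPKM in Tshr-/- 1, 2 and 3 against 363, 380 and 287 in Tshr+/+ 1, 2 and 3. For each gene the library numbered 3 was the lowest of its group. The log2 fold changes were -0.19 ± 0.15 (SE) for mt-Rnr1 and -0.14 ± 0.16 (SE) for mt-Rnr2, and neither passed (limma adjusted p = 0.9997 each). Both were lower in Tshr-/- in 3 of 3 pairs of equal number, a pairing that the labels do not state and that was looked at after the data were seen. Without Tshr-/- 3 they were -0.0696 for mt-Rnr1 and -0.0612 for mt-Rnr2. mt-Rnr1 was at -0.30 without Tshr-/- 2. mt-Rnr2 was at -0.26 without Tshr-/- 2 and at -0.27 without Tshr+/+ 3, but at -0.0672 when Tshr+/+ 2 was left out. The level of mt-Rnr2 over that of mt-Rnr1 was between 1.18 and 1.41 in the 6 libraries. Ribosomal RNA lacks a long poly(A) tail and the library kit is named as one for mRNA, and the part of the kit in these levels was not tested.

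The ratio of rRNA to mRNA fragments overlapped between the groups. It was 0.132, 0.150 and 0.101 in the libraries labelled Tshr-/- 1, 2 and 3, against 0.145, 0.152 and 0.128 in Tshr+/+ 1, 2 and 3. The library labelled Tshr-/- 3 had the lowest ratio and also the highest share of mitochondrial fragments. The means were 0.127 ± 0.0250 in Tshr-/- and 0.142 ± 0.0125 in Tshr+/+ (SD, n = 3 each; exact two-sided permutation test p = 0.6). Between libraries of equal number the ratio was lower in Tshr-/- in 3 of 3 pairs (exact paired permutation test, two-sided, p = 0.25, the smallest that 3 pairs allow). This pairing, too, is not stated in the labels, and its test was added after the data were seen. Without the library labelled Tshr-/- 3 the difference of mean log2 ratios was -0.01, against -0.17 with all 6. The library labelled Tshr-/- 3 also had the lowest sum of the myeloid markers, 70217 FPKM, where the other 5 held between 84318 and 102466 FPKM, and the part of that difference in the ratio was not tested.

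**Figure D5:**
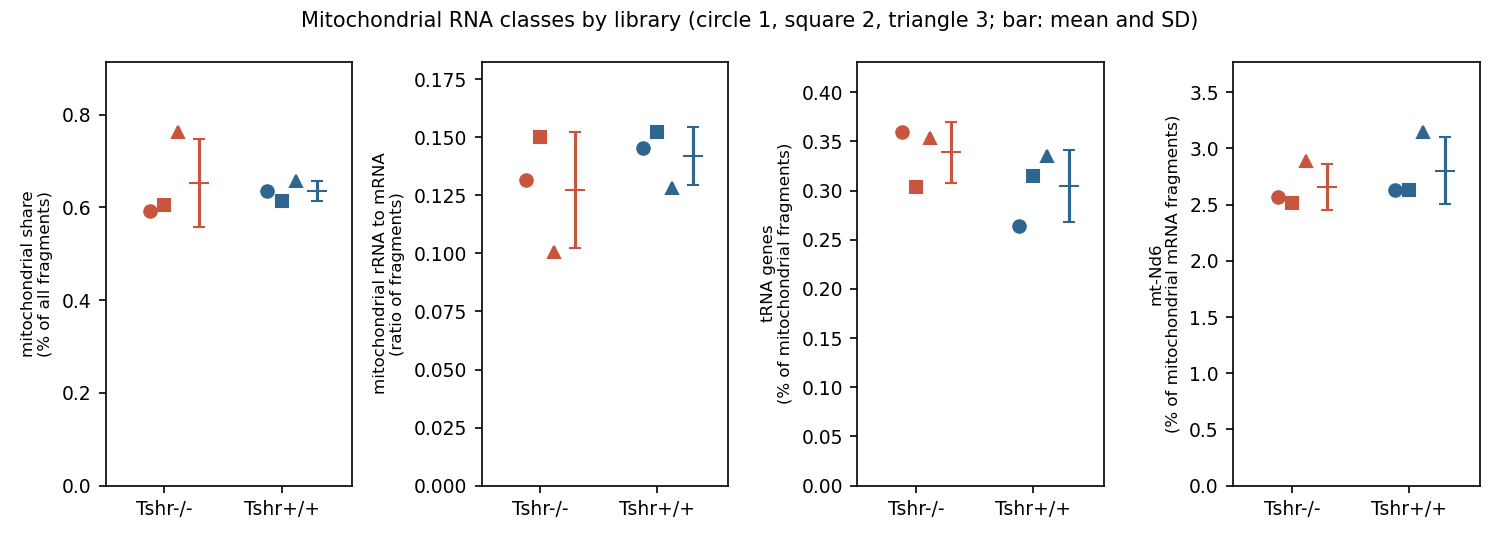
Mitochondrial share of all fragments, ratio of rRNA to mRNA fragments, tRNA share and mt-Nd6 share, with 1 point per library and the mean and SD of each group beside them, Tshr-/- left of Tshr+/+. The groups overlap in all 4 panels, and the library labelled Tshr-/- 3 has the highest mitochondrial share (0.762%) and the lowest ratio (0.101).

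Fragments counted on tRNA genes fell mostly on 3 genes of the minus strand. The tRNA genes are 59 to 75 bases long, and a fragment of a mature tRNA cannot be told apart from one of a longer RNA that spans it. The 8 tRNA genes on the minus strand held 1899 of 2110 tRNA fragments over the 6 libraries, and the 14 on the plus strand held the rest. Whether counts were split by strand is not given, so these counts show the strand of the gene and not that of the RNA. mt-Tp, mt-Tn and mt-Tc together held between 81.1% and 89.9% of the tRNA fragments of a library. mt-Tn and mt-Tc are neighbours, with 32 bases between them.

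mt-Tp had 97.4, 113 and 110.4 FPKM in Tshr-/- 1, 2 and 3 against 97.2, 107 and 77.5 in Tshr+/+ 1, 2 and 3. mt-Tn had 91.1, 69.3 and 109 FPKM in Tshr-/- 1, 2 and 3 against 64.5, 96.9 and 100.5 in Tshr+/+ 1, 2 and 3. mt-Tc had 88.5, 71.3 and 88.0 FPKM in Tshr-/- 1, 2 and 3 against 45.4, 65.9 and 90.1 in Tshr+/+ 1, 2 and 3. The groups overlapped for all 3, and none passed (limma adjusted p = 0.9997 each). mt-Tl1, which lies directly between mt-Rnr2 and mt-Nd1, had 10.8, 7.61 and 12.6 FPKM in Tshr-/- 1, 2 and 3 against 11.0, 8.85 and 11.5 in Tshr+/+ 1, 2 and 3, from 8 to 19 fragments. The share of tRNA genes among mitochondrial fragments was 0.339% ± 0.0306 in Tshr-/- and 0.305% ± 0.0366 in Tshr+/+ (SD, n = 3 each; exact two-sided permutation test p = 0.3). Over the 5 permutation tests on class totals and shares, every Benjamini-Hochberg adjusted p was 1.

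The remaining 18 tRNA genes were near or at the floor. Of these, 8 passed the filter with between 0 and 14 fragments in a library. They were mt-Tw, mt-Ta, mt-Ty, mt-Th, mt-Ts2, mt-Tl2, mt-Te and mt-Tt, and none was called. The largest fold change among them, of mt-Th for histidine at 1.29 ± 0.59 (SE), rests on 9, 1 and 4 fragments in Tshr-/- against 2, 1 and 0 in Tshr+/+. The other 10 fell below the filter with at most 3 fragments in any library. Among those 10, mt-Tf, mt-Tv, mt-Tq, mt-Ts1, mt-Td and mt-Tk had 0 fragments in all 6 libraries, which allows up to 3 fragments per library by counting error. All 5 tRNA genes positioned inside the copied stretch (mt-Ts1, mt-Td, mt-Tk, mt-Tg and mt-Tr) were among the 10, with 3 fragments in total. The others of the 10, mt-Tf, mt-Tv, mt-Ti, mt-Tq and mt-Tm, lie outside it, where 3 of 17 tRNA genes had 0 fragments. Inside it, mt-Td, mt-Tk, mt-Tg and mt-Tr are on the plus strand, whose 14 tRNA genes together held 211 fragments.

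Nuclear genes that serve the mitochondrial genome, in 12 lists of 182 genes, were looked at beside its transcripts. Of these, 154 were tested and limma called 0 higher and 0 lower, against 0% of all genes tested. The medians of the lists lay between -0.08 and 0.07, beside -0.01 over all genes tested. Of the 154, 69 had a log2 fold change above 0 and 85 below, so the genes named here do not stand for the lists. All Tshr-/- values lay above all Tshr+/+ values for 0 of the 154 and below them for 6, against 3.23% and 3.55% of all genes tested. The RNA polymerase gene Polrmt, which transcribes this genome, stood at a log2 fold change of 0.15 ± 0.14 (SE). Tfam, its DNA-packing activator, stood at -0.16 ± 0.14 (SE). Twnk, the helicase that unwinds mitochondrial DNA, averaged 1.55 ± 0.130 FPKM in Tshr-/- against 1.91 ± 0.127 in Tshr+/+ (SD, n = 3 each), with no overlap. The RNA-binding protein gene Tbrg4 averaged 11.0 ± 0.966 FPKM in Tshr-/- against 12.6 ± 1.27 in Tshr+/+. Trnt1, which adds the CCA end to tRNAs, averaged 3.58 ± 0.719 FPKM in Tshr-/- against 4.65 ± 0.889 in Tshr+/+. Each of these 5 genes had a limma adjusted p of 0.9997. Other genes of smallest p in their lists lay higher in Tshr-/-, such as Tsfm at 0.22 ± 0.16 (SE) and Lig3 at 0.19 ± 0.13 (SE), with the same adjusted p.

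Nuclear subunits that assemble with the mitochondrial ones were close between the groups as sums. The 36 nuclear genes of complex I summed to 1022 ± 81.4 FPKM in Tshr-/- against 1034 ± 66.6 in Tshr+/+ (SD, n = 3 each), beside 1654 ± 160.2 and 1641 ± 18.0 FPKM for its 7 mitochondrial genes. The mitochondrial over the nuclear sum was 1.63 ± 0.294 and 1.59 ± 0.0941 for complex I, 1.81 ± 0.165 and 1.77 ± 0.107 for complex III, and 1.80 ± 0.287 and 1.75 ± 0.140 for complex IV, in Tshr-/- and Tshr+/+. For ATP synthase, whose 2 mitochondrial genes both lie in the copied stretch, it was 0.0248 ± 0.00182 in Tshr-/- and 0.0224 ± 0.00434 in Tshr+/+. The differences were smaller than the SD of either group for complexes I, III and IV. Ndufs5, a small nuclear subunit of complex I, had the smallest p of the 12 lists, at 23.1 ± 6.47 FPKM in Tshr-/- against 32.6 ± 1.05 in Tshr+/+ (log2 fold change -0.51 ± 0.19, SE; limma adjusted p = 0.9997). It had 18.4, 20.5 and 30.5 FPKM in Tshr-/- 1, 2 and 3 against 31.5, 32.8 and 33.5 in Tshr+/+ 1, 2 and 3, so Tshr-/- 3 lay next to Tshr+/+ 1. Uqcrfs1, the iron-sulfur subunit of complex III, averaged 55.4 ± 2.11 FPKM in Tshr-/- against 63.2 ± 3.804 in Tshr+/+, and Sdhb, a subunit of complex II, which has no mitochondrially encoded part, averaged 27.0 ± 0.916 FPKM in Tshr-/- against 29.3 ± 1.18 in Tshr+/+. Neither overlapped between the groups, and neither passed (limma adjusted p = 0.9997 each). Atp5k, a nuclear subunit of ATP synthase, lay higher in Tshr-/- (log2 fold change 0.24 ± 0.17, SE, limma adjusted p = 0.9997). Of the 16 nuclear genes of ATP synthase tested, 5 lay above 0 and 11 below.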

How the data were processed

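RNA libraries of CD11b-positive bone marrow cells of 3 mice titled Tshr-/- and 3 titled Tshr+/+ were analysed. Per the labels' protocols, libraries were built from total RNA with the SMARTER mRNA-Seq kit. The authors deposited 1 FPKM value per gene and library, with the gene's length and position. Columns headed HO were read as Tshr-/-, the only genotype beside wild type in the labels, and those headed WT as Tshr+/+. GRCm38 and mm10 are the builds listed, per the submitters' processing notes. Aligner, counter and strand setting: not given in the sources used here. Positions of all 37 mitochondrial genes equalled those of GENCODE release M21.

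FPKM times gene length gave whole multiples of 1 step per library for 100% of values within 0.01, from which fragments were computed. Genes reaching 1 FPKM in 3 or more libraries were tested on log2(FPKM + 1) with limma 3.58.1 in R 4.3.3 (trend, two-sided, Benjamini-Hochberg, threshold 0.05). The method was tested on simulated data. Class totals were compared with exact permutation tests, without and with the pairing of equal numbers. Words of 50 bases of each mitochondrial transcript, and of 30 bases where stated, were searched on both strands of all other GENCODE transcripts. Alternatives were other pseudocounts, filters, scalings, voom, robust moderation, array weights, a replicate block and each library left out. Deviations of same-numbered libraries from their group means correlated in all 3 pairs (r = 0.243, 0.262 and 0.468 over tested genes). This is only a hint from the same data, and Tshr-/- 1 correlated more with Tshr+/+ 2 (r = 0.344). The labels do not say that equal numbers form pairs. The tests without pairing are therefore the main ones, and the paired ones are given beside them.

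All 13 mRNA and 2 rRNA genes are named, the tRNA genes with at least 10 fragments on average, and from each nuclear list the most abundant gene and the 2 of lowest p, of which the text gives some; other genes were named after their values were seen. The members and lists were chosen with earlier results of these data known. No library was a copy of another (chi-square over degrees of freedom at least 10.8 for each pair).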

Additional observations from a re-analysis of the deposited data

How the results depend on the processing

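No mitochondrial gene was called under any setting that was run, and no result of a test crossed its threshold apart from the count over all genes. That count was 0, and 24 with array weights (13 higher, 11 lower; the largest weights were 3.82 for Tshr-/- 1 and 3.15 for Tshr+/+ 2, and the smallest adjusted p of a mitochondrial gene was 0.0547). It ranged from 0 to 2 with 1 library left out, the 2 without Tshr-/- 3. With the replicate block, which pairs equal numbers, limma called 0 genes and 0 mitochondrial genes, with 651 genes at an unadjusted p under 0.05 in place of 317, so the pairing changed no call. Paired permutation tests of the class totals and shares, added after seeing the data, gave p from 0.25, the smallest that 3 pairs allow, to 1 (0.625 to 1 adjusted over the 5). The median of the mRNA genes was 0.06, -0.0333 with array weights, 0.19 without both Tshr-/- 1 and 2, and -0.00985 to 0.12 with 1 library left out. The difference in mt-Nd6 share was -0.143 percentage points, 0.0887 without both Tshr-/- 1 and 2, and -0.259 to 0.0280 with 1 left out. With 1 left out, the mitochondrial share differed by -0.0367 to 0.0485 percentage points and the summed mRNA level by -0.0534 to 0.0619 (log2).

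Fold changes (log2) that turned sign were uncalled throughout. With array weights mt-Tl1 was at 0.14, mt-Nd1 at -0.0705, mt-Co1 at -0.0978, mt-Nd5 at -0.0925, mt-Cytb at -0.0333 and mt-Tp at -0.0331. With equal totals mt-Tl1 was at 0.00116 and Ndufa1 at 0.0121. With quantile normalization mt-Nd4 was at 0.0119, mt-Nd6 at 4.82e-05 and Ndufa1 at 0.0555. Without both Tshr-/- 1 and 2, mt-Tl1 was at 0.25, mt-Nd6 at 0.19 and Atp5a1 at 0.12. With the nuclear copy added mt-Nd3 was at -0.12. With 1 library left out the ranges were -0.18 to 0.15 for mt-Tl1, -0.0711 to 0.0591 for mt-Nd1, -0.16 to 0.22 for mt-Tn, -0.0606 to 0.0553 for mt-Co1, -0.0920 to 0.33 for mt-Co2, -0.12 to 0.17 for mt-Nd5, -0.19 to 0.0115 for mt-Nd6, -0.00985 to 0.0661 for mt-Cytb, -0.14 to 0.0440 for Cox8a, -0.17 to 0.0171 for Atp5a1, -0.0898 to 0.0848 for Ndufa1 and -0.0312 to 0.12 for Mrpl12. The cause was not tested, except that adding the copy changes mt-Nd3 by construction. Of 338 values for the named mitochondrial genes, 312 kept their sign, as did 561 of 570 for nuclear genes. Low counts limit mt-Nd3, mt-Nd4l, mt-Atp8 and most tRNA genes.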
